A study of Mus musculus with 6 samples.

Results

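The genes described here are 10 that encode secreted cytokines or chains of them: Csf1 (M-CSF), Csf2 (GM-CSF), Il6, Il10, Il12a, Ebi3, Il2, Il4, Il16 and Il15. They were taken by symbol from 46316 gene symbols in the count table, with earlier results of these data known. All 10 were found, over 47 transcript rows, and each was read from the row with the highest mean count. Of the 10, 5 had enough counts to be tested (Csf1, Ebi3, Il12a, Il16 and Il15) and 5 did not (Il10, Il6, Csf2, Il2 and Il4).

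The cells were naive B cells from the spleen of WT mice, isolated with magnetic beads. Both groups received 500 ng/mL anti-CD40 antibody, which stands in for the CD40 ligand of helper T cells, together with IL-4 at 5 ng/mL, and were harvested after 48 hours. They differed only in bryostatin 1, a protein kinase C activator, given at 0.8 nM in the IL-4 + bryostatin 1 group and left out in the IL-4 group, with 3 samples in each. The RNA sequencing was done to look for how bryostatin 1 lowers switching to IgE, and the comparison here asks which cytokine genes of these B cells differed with the compound. The sources do not state that the 3 samples of a group were separate mice or cultures. The p-values therefore describe the spread of these samples, and that spread may be technical.

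B cells are best known as antibody producers, but activated B cells also release cytokines. M-CSF keeps macrophages and their precursors alive and drives their maturation through the receptor CSF1R. IL-10 and IL-35, a dimer of the Ebi3 and Il12a (p35) products, are among the cytokines of regulatory B cells. The same chains also pair elsewhere: Ebi3 with the Il27 (p28) product in IL-27, and Il12a with the Il12b (p40) product in IL-12.

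Total counts, with 1 row per gene, ranged from 19959971 to 24896427 per sample. Of 13863 genes tested, 58.2% were called in either direction at an adjusted p under 0.05 by edgeR's quasi-likelihood test, 30.0% as higher and 28.1% as lower with bryostatin 1. The groups did not overlap for 63.4% of them. With 3 samples against 3, the two-sided exact permutation test on a single gene cannot give a p below 0.1. The B cell markers Cd79a, Cd79b, Ms4a1, Pax5 and Cd22 together summed to 4720 to 4951 CPM (count level after division by the scaled library size) with IL-4 and to 3686 to 3949 CPM with IL-4 + bryostatin 1.

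Against that background, 4 of the 5 tested cytokine genes were called: Csf1 and Ebi3 were higher with bryostatin 1, Il12a and Il16 were lower, and Il15 was not called. The groups did not overlap for those 4 genes and overlapped for the other 6. The median log2 fold change of the 5 was -0.12, beside 0.0 for all genes tested. A call alone is therefore common in these data, and the genes differed in how far they moved: Csf1 changed 10.4-fold, Ebi3 and Il12a close to 2-fold in opposite directions, and Il16 1.08-fold.

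**Figure D1:**
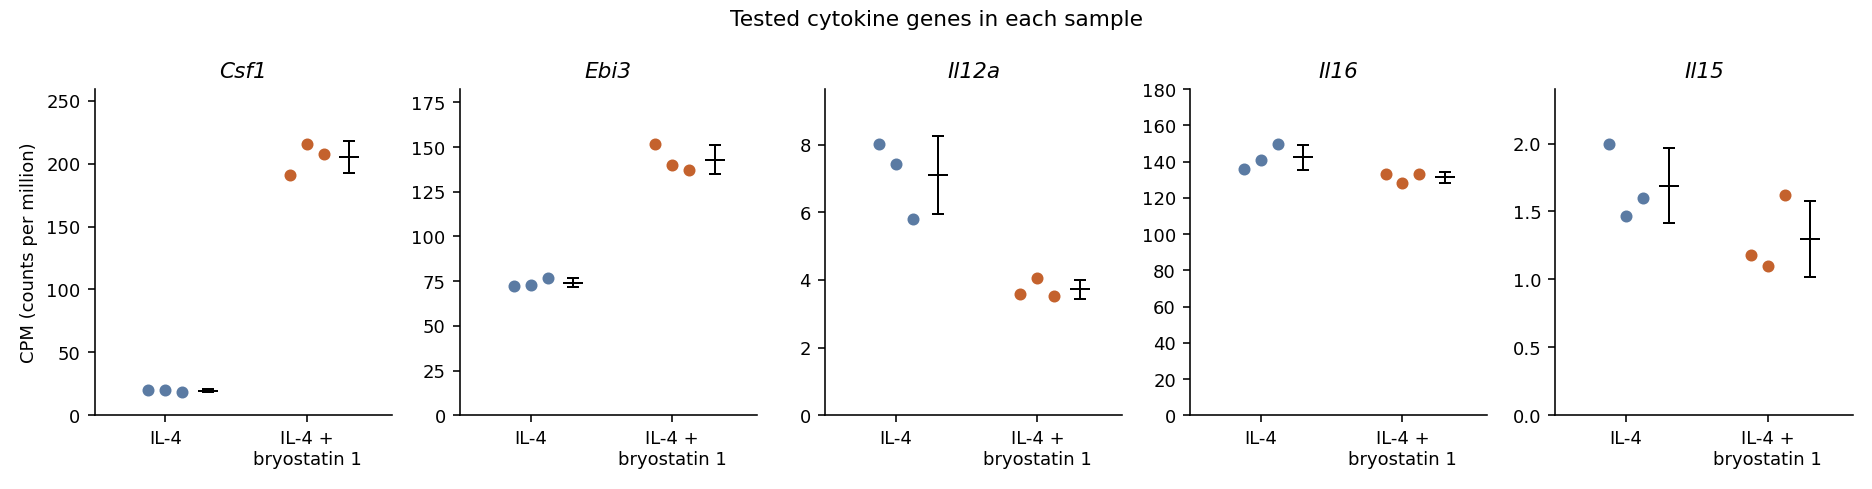
Level in CPM (vertical axes, each from 0 and with its own scale) of the 5 tested cytokine genes in each sample of the IL-4 and IL-4 + bryostatin 1 groups. Points are samples, and bars beside them give the mean ± SD (n = 3). Csf1 lay at 18.6 to 20.2 CPM with IL-4 and at 191.0 to 216.0 CPM with bryostatin 1, and only Il15 overlapped between the groups.

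The promoter sequences of the 3 genes with the larger changes are shown first, because Csf1 and Ebi3 rose together and Il12a, whose product pairs with that of Ebi3, fell. Each is the 250 bases before the annotated start, read 5′ to 3′ on the gene's strand, from RefSeq on GRCm38.p6. The Csf1 stretch is chr3:107760470-107760719 on the minus strand, the Ebi3 stretch chr17:55952373-55952622 on the plus strand, and the Il12a stretch, before the first of its 2 listed starts, chr3:68690394-68690643 on the plus strand. Capitals mark matches to the motifs searched, lower case all other bases.
Csf1: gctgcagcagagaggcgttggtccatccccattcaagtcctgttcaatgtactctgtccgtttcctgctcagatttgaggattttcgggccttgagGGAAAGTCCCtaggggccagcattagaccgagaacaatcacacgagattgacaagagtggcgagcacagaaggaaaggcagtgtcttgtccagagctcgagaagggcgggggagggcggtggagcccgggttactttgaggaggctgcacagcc
Ebi3: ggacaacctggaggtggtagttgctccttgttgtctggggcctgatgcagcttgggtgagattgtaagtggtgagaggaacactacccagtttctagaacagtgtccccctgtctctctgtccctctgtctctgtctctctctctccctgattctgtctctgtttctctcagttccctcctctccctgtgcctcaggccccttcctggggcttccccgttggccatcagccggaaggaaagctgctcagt
Il12a: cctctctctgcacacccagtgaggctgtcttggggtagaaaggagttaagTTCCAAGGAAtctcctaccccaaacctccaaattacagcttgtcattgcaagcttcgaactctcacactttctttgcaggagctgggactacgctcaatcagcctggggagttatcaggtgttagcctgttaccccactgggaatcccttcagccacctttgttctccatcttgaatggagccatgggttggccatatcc

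Motifs searched on both strands were AP-1 (TGANTCA), STAT (TTCNNNGAA), STAT6 (TTC and GAA with 4 bases between them), NF-kB (GGGA and TTTCC with 1 base between them), CRE (TGACGTCA) and RUNX (TGTGGT), factors that act below protein kinase C, IL-4 or CD40. In Csf1, the capitals are an NF-kB match on the opposite strand, printed on the gene's strand as GGAAAGTCCC, from 154 to 145 bases before the start. This motif stood in 0.356% of 32851 promoter stretches of the same length. In Il12a, the capitals are a STAT6 match, from 200 to 191 bases before the start, and that motif stood in 5.85% of all stretches. The Ebi3 stretch held none of the 6 motifs. Of the 10 genes, 8 had a promoter in the table, with 12 stretches in all. NF-kB matches also stood in the stretches of Il6, which was near 0 counts in both groups, and of 1 of 3 starts of Il16. STAT6 matches also stood before the second start of Il12a, with a RUNX match, and before a start of Il4. Il4 had 0 counts in every sample. AP-1 matches stood in stretches of Il6 and Il16. A match is a description of the letters only and no sign of a bound factor.

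Csf1 encodes M-CSF (chr3:107741048-107760469 on GRCm38.p6). Without bryostatin 1 its level was 20.2, 20.1 and 18.6 CPM, and with it 191.0, 216.0 and 208.0 CPM. The groups were far apart and the samples within each lay close together. The means were 19.6 ± 0.865 CPM (SD, n = 3) and 205.0 ± 12.6 CPM (SD, n = 3). The log2 fold change was 3.38 (SE 0.05, adjusted p = 2.4e-18 from edgeR), that is 10.4-fold higher. Only 0.685% of the tested genes had a larger log2 fold change. In bulk samples, fewer cells of a type and less RNA per cell cannot be told apart, and this holds for every level given here.

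Csf1 RNA is made in several forms. In GENCODE vM21, on GRCm38, variants 1 and 2 share their exons except that variant 1 has 885 more coding bases in exon 6 (chr3:107748285-107749169) and 233 more bases at the 5′ end. The longer exon 6 encodes the stretch where the precursor is cut to release soluble M-CSF, and the protein from the shorter exon 6 stays at the cell surface. Variant 3 has the long exon 6 and a different last exon, 246 bases of 3′ UTR in place of 2098. Counts of the 3 variants and of 3 predicted forms overlapped so closely that a read seems to have been counted in each row it touches, which the sources do not state. Row differences are therefore given as a description.

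The variant 1 row held 412, 424 and 405 counts with IL-4 and 4840, 4292 and 4510 with bryostatin 1. It exceeded the variant 2 row by 44, 42 and 47 counts with IL-4 and by 547, 536 and 534 with bryostatin 1, which are reads that touched only the longer parts of variant 1. RNA with the stretch for soluble M-CSF, or with the longer 5′ end, was thus present in both groups. These counts were 10.7% ± 0.846 of the variant 1 row with IL-4 and 11.9% ± 0.603 with bryostatin 1 (SD, n = 3), and the shares of the groups overlapped (exact permutation test, p = 0.2, where 0.1 is the smallest it can give). This does not show that the shares were alike. In CPM they were 2.09 ± 0.0896 and 24.3 ± 2.61 (SD, n = 3), a log2 ratio of 3.54.

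The variant 3 row rose a little more than the others, with a log2 ratio of group means of 3.53 against 3.39 for variant 1 and 3.37 for variant 2. Variant 1 exceeded it by 57.0%, 53.1% and 55.3% of its counts with IL-4 and by 52.0%, 51.1% and 48.2% with bryostatin 1. The groups did not overlap, and the exact permutation test gave p = 0.1, the smallest it can give here. This net difference counts reads found only on the long last exon, or on 227 bases at the 5′ end. Reads found only on the short last exon are subtracted. Only its share of the variant 1 row was lower with bryostatin 1. In CPM the net difference rose from 10.7 ± 0.611 to 103.0 ± 6.02 (SD, n = 3), a log2 ratio of 3.26. Over all 6 rows of the gene the log2 ratio ran from 3.36 to 3.53.

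**Figure D2:**
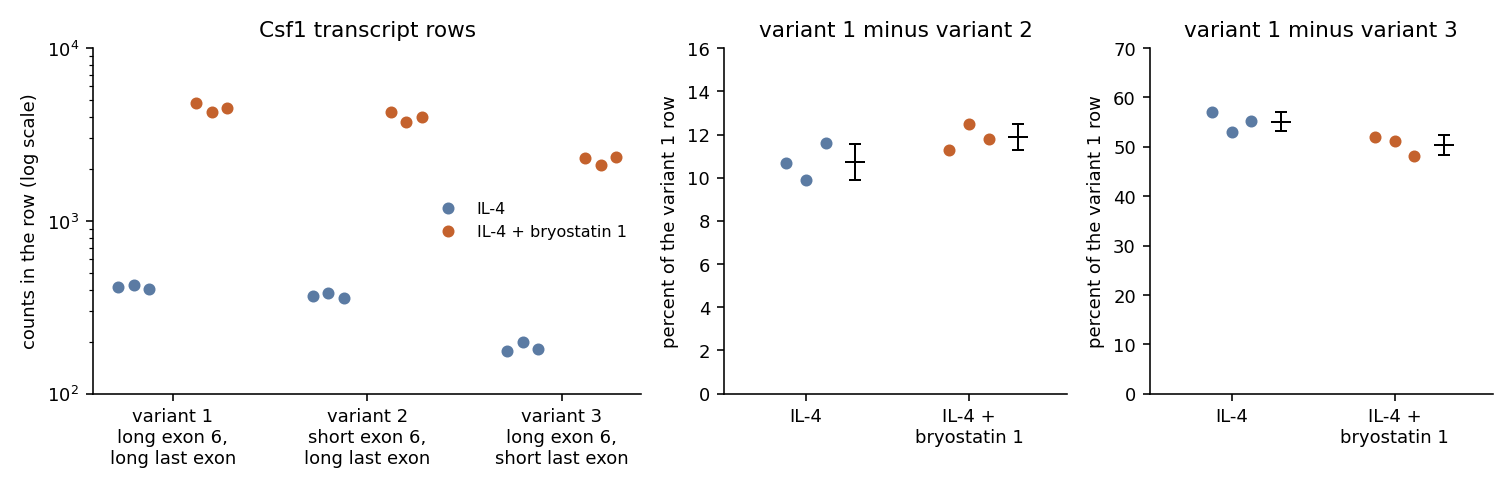
Left, counts (log scale) of the Csf1 rows for variants 1, 2 and 3 in each sample. Middle and right, the counts by which the variant 1 row exceeded the variant 2 or variant 3 row, as a percent of the variant 1 row, with points for samples and bars for the mean ± SD (n = 3). All 3 rows rose, the middle share overlapped between groups (9.91% to 11.6% and 11.3% to 12.5%), and the right share was lower with bryostatin 1.

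Macrophages, stromal cells and other spleen cells also make M-CSF, so their markers are given beside Csf1. The 10 macrophage and monocyte markers summed to 5.89 to 9.09 CPM with IL-4 and 22.7 to 26.0 CPM with bryostatin 1. Nearly all of that rise lay in Adgre1 (F4/80), at 3.16 ± 0.662 CPM and 19.7 ± 1.32 CPM (SD, n = 3). The other 9 markers, with Lyz2, Cd14 and the C1q genes among them, summed to 3.11 to 5.21 CPM and 3.46 to 4.81 CPM, ranges that overlapped.

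The 6 dendritic cell markers summed to 16.5 to 17.9 CPM and 41.0 to 43.7 CPM, and to 3.31 to 4.35 CPM and 4.22 to 5.77 CPM without Zbtb46. Among the rest Itgax was higher, at 0.697 ± 0.362 CPM against 3.14 ± 0.857 CPM, and Flt3 lower, at 2.85 ± 0.569 CPM against 1.19 ± 0.205 CPM (SD, n = 3). The 5 stromal markers summed to 0.0974 to 0.379 CPM and 0.512 to 0.801 CPM, ranges that did not overlap. Among them Pdgfrb had 1, 3 and 4 counts with IL-4 and 10, 8 and 9 with bryostatin 1. Col1a1, Col1a2 and Pdgfra overlapped between groups, and Col3a1 was at 0 in every sample. The 5 neutrophil markers summed to at most 0.0974 CPM, with Ly6g and Elane at 0 in every sample. Leaving out Adgre1 and Zbtb46 was decided after their values were seen, and the part of other cells in the Csf1 difference was not tested.

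CSF1R, the M-CSF receptor, is a marker of macrophages. Csf1r had 12, 11 and 4 counts in the IL-4 samples and 5, 3 and 8 in the IL-4 + bryostatin 1 samples. It was below the count filter and overlapped between groups, with 0.562 times the IL-4 level with bryostatin 1 (95% interval 0.283 to 1.08, counting error only). The large rise of the ligand RNA was thus seen in cultures where receptor RNA was scarce in both groups.

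The 3 genes closest to Csf1 over the 6 samples, by Euclidean distance in log2 CPM centred per gene among 9519 genes, were Skida1 (distance 0.34), Abca1 (0.4) and Phldb1 (0.4). Abca1 encodes a transporter that exports cholesterol from cells. Its mean went from 3.85 ± 0.408 CPM without bryostatin 1 to 33.8 ± 2.44 CPM with it (SD, n = 3), and its log2 fold change was 3.13.

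Ebi3 (chr17:55952623-55957022 on GRCm38.p6) encodes the chain shared by IL-27 and IL-35. It was at 72.1, 73.1 and 77.0 CPM with IL-4 and at 152.0, 140.0 and 137.0 CPM with IL-4 + bryostatin 1. The groups stood well apart, at 74.1 ± 2.57 CPM and 143.0 ± 8.2 CPM (SD, n = 3). The log2 fold change was 0.95 (SE 0.05, adjusted p = 3.8e-12 from edgeR), 1.93-fold higher. Its other row, a predicted transcript, gave the same log2 ratio of 0.95.

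Il12a (chr3:68690644-68698550 on GRCm38.p6) encodes p35, the chain of IL-12 that also pairs with the Ebi3 product. It was at 8.03, 7.43 and 5.8 CPM with IL-4 and at 3.59, 4.05 and 3.51 CPM with bryostatin 1. All bryostatin 1 samples were lower, and the third IL-4 sample was nearest to them. The log2 fold change was -0.93 (SE 0.14, adjusted p = 1.7e-05 from edgeR), 1.91-fold lower, from 7.09 ± 1.15 CPM to 3.72 ± 0.295 CPM (SD, n = 3). Its 3 rows had log2 ratios from -1.02 to -0.93.

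The 2 chains of IL-35 thus moved in opposite directions. Per kilobase of transcript, with GENCODE lengths of 1154 bases for Ebi3 and 1268 bases for Il12a, the Ebi3 level was 9.87, 10.8 and 14.6 times that of Il12a in the IL-4 samples. With bryostatin 1 it was 46.6, 37.8 and 42.6 times that of Il12a. The ratio was 3.6 times higher with bryostatin 1 and did not overlap between groups (exact permutation test, p = 0.1). Il12a was the scarcer chain in every sample.

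The other partner chains were all below the count filter. Il12b, the p40 chain of IL-12 and IL-23, had 2, 3 and 1 counts with IL-4 and 9, 5 and 3 with bryostatin 1. Il27, the p28 partner of Ebi3 in IL-27, had 0 counts in every sample but 1 of the bryostatin 1 group, which had 3. RNA for the partner chains that would complete IL-12 or IL-27 was thus near the limit of detection in both groups.

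Il23a, the p19 chain that pairs with p40 in IL-23, had 2, 0 and 0 counts with IL-4 and 20, 8 and 12 with IL-4 + bryostatin 1. The summed level was 19.0 times higher with bryostatin 1 (95% interval 4.92 to 162.0, counting error only), at 0.0315 CPM against 0.597 CPM. It was not tested with the filter. With no filter its edgeR adjusted p was 8.3e-08, at a log2 fold change of 4.01 (SE 0.7). That fit gave Ebi3 an adjusted p of 5.4e-105 in place of 3.8e-12, at nearly the same fold change. Its p-values can therefore not be read on the scale of the main fit.

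Il16 encodes a precursor whose cleaved end is a chemoattractant for cells with CD4. It was at 136.0, 141.0 and 150.0 CPM with IL-4 and at 133.0, 128.0 and 133.0 CPM with bryostatin 1. The groups did not overlap but nearly touched. The log2 fold change was -0.12 (SE 0.04, adjusted p = 0.018 from edgeR), from 143.0 ± 6.8 CPM to 131.0 ± 2.97 CPM (SD, n = 3). The call was lost with edgeR on library totals (adjusted p = 0.0588), without IL-4 replicate 3 (0.0841) and without IL-4 + bryostatin 1 replicate 2 (0.0886).

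Il16 has a long form, known from neurons, and a short form, known from lymphocytes. In GENCODE vM21 these have 19 exons and 5260 bases, and 7 exons and 3183 bases, with 2149 bases only in the long and 72 only in the short form. The rows of both held the same count in every sample, as did those of the other 2 curated variants. The rows thus held no net reads that touched only bases of the long form, with or without bryostatin 1. If a read counts in each row it touches, a read that also touched shared bases adds to both rows. The long form is therefore not excluded.

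Il15 supports NK cells and memory T cells and is presented on the IL-15 receptor α chain. It was at 2.0, 1.47 and 1.6 CPM with IL-4 and at 1.18, 1.1 and 1.62 CPM with bryostatin 1. The groups overlapped through the third bryostatin 1 sample. The log2 fold change of -0.37 (SE 0.22) was not called (adjusted p = 0.16 from edgeR), and at 22 to 41 counts per sample it does not show that the levels were alike.

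Levels of different genes are compared only per kilobase of transcript. With IL-4 the order was Ebi3 at 64.2 ± 2.23, Il16 at 44.8 ± 2.14 by its short form, Il12a at 5.59 ± 0.91, Csf1 at 4.68 ± 0.215 by variant 1 and Il15 at 1.35 ± 0.194 CPM per kb (SD, n = 3). Il12a and Csf1 overlapped there. With bryostatin 1 Csf1 stood second, at 49.0 ± 2.98, below Ebi3 at 124.0 ± 7.1 and above Il16 at 41.3 ± 0.933, Il12a at 2.93 ± 0.233 and Il15 at 1.03 ± 0.2 CPM per kb (SD, n = 3). The lowest Csf1 sample, at 45.7, was above the highest Il16 sample, at 41.9. By the 5260 bases of its long form Il16 would be at 27.1 and 25.0 CPM per kb, with the same order of genes.

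**Figure D3:**
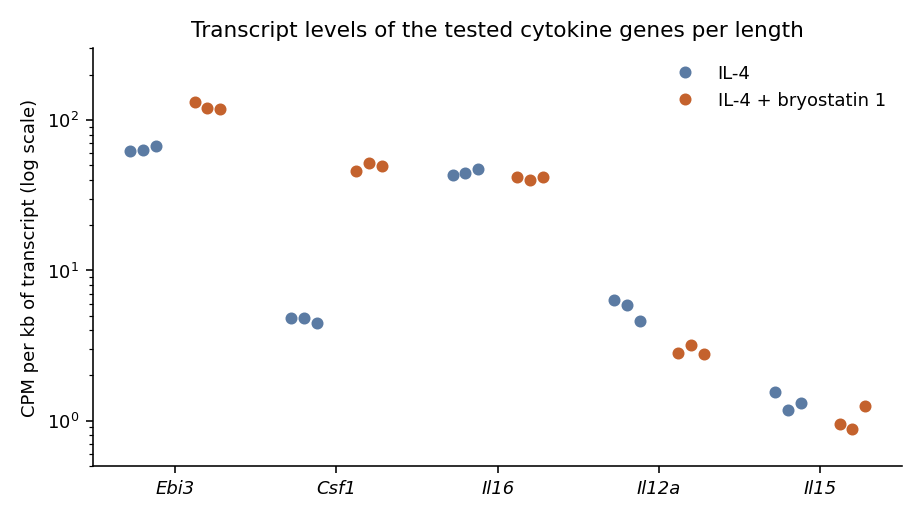
Level in CPM per kb of transcript (log scale) of the 5 tested cytokine genes in each sample, with points for the samples of both groups and the genes ordered by their level with bryostatin 1. Csf1 moved from 4.43 to 4.8 with IL-4, next to Il12a, to 45.7 to 51.4 with bryostatin 1, next to Il16.

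The other 5 genes had too few counts to be tested. Il10, the main inhibitory cytokine of regulatory B cells, had 9, 7 and 1 counts with IL-4 and 3, 4 and 1 with IL-4 + bryostatin 1. The summed levels were 0.267 CPM (95% Poisson interval 0.156 to 0.428) and 0.119 CPM (0.0515 to 0.235), intervals that overlapped and cover counting error only. A difference in Il10 was not detectable at this depth.

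Il6, a growth factor for plasma cells, had 0, 1 and 3 counts with IL-4 and 3, 0 and 2 with bryostatin 1. Csf2, the gene of GM-CSF, had 0, 1 and 2 counts and 1, 1 and 1 counts. Neither gene had more than 3 counts in any sample, and neither differed detectably. The upper Poisson limits of the summed levels were 0.161 and 0.174 CPM for Il6 and 0.138 and 0.131 CPM for Csf2.

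Il2, the T cell growth factor, had 0 counts in all IL-4 samples and 0, 2 and 0 with bryostatin 1. Il4, the gene of the cytokine added to the cultures, had 0 counts in all 6 samples. A count of 0 allows up to 3 counts over the group by a one-sided limit, where the intervals above are two-sided, and 3 counts are 0.0472 CPM with IL-4 and 0.0448 CPM with IL-4 + bryostatin 1. No fold is given for Il2 or Il4, since both groups were at or under that floor.

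**Figure D4:**
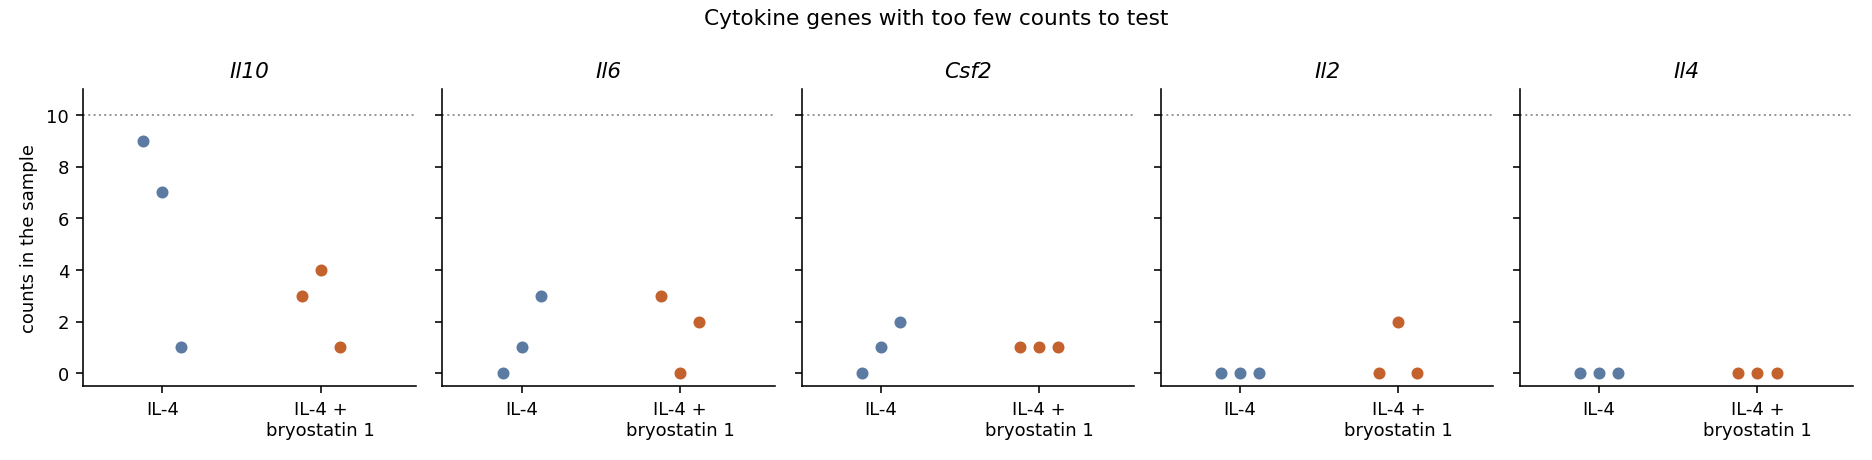
Counts per sample (vertical axis) of the 5 cytokine genes below the count filter, with points for the samples of both groups and a dotted line at the filter's minimum of 10. No gene reached the line, Il10 had the highest count at 9, and Il4 was at 0 throughout.

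Receptors for these cytokines were listed as well. Of 18 receptor genes, 15 were tested, 3 were higher, 8 were lower and 4 were not called, with a median log2 fold change of -0.29 beside 0.0 for all genes, of which 30.0% were higher and 28.1% lower. The 3 higher genes were Il2ra, Il2rb and Il12rb1. Those lower were Il4ra, both IL-10 receptor chains, both GM-CSF receptor chains, Il6ra, Il27ra and the shared chain Il2rg. The Il2rg groups overlapped at a log2 fold change of only -0.09 (SE 0.04, adjusted p = 0.038 from edgeR), and the list held 7 lower genes at an adjusted p under 0.01.

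The IL-2 receptor changed most on this list. Its α chain, Il2ra, was at 3.5, 5.58 and 4.52 CPM with IL-4 and at 173.0, 195.0 and 176.0 CPM with bryostatin 1, a log2 fold change of 5.31 (SE 0.09, adjusted p = 2.4e-18 from edgeR). The β chain, Il2rb, which IL-15 uses too, went from 0.836 ± 0.135 CPM to 3.81 ± 0.563 CPM (SD, n = 3), by 2.18 on the log2 scale (SE 0.21, adjusted p = 6e-08 from edgeR). Genes for 2 chains of the IL-2 receptor rose while Il2 itself stayed at or under the floor.

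Il4ra, the receptor chain for the IL-4 given to all cultures, was at 660.0, 602.0 and 579.0 CPM with IL-4 and at 196.0, 189.0 and 192.0 CPM with bryostatin 1. Its log2 fold change was -1.67 (SE 0.04, adjusted p = 1.5e-15 from edgeR), 3.19-fold lower. Il10ra, the ligand-binding chain for IL-10, was at 12.7 ± 1.72 CPM and 3.89 ± 0.938 CPM (SD, n = 3), with a log2 fold change of -1.71 (SE 0.14, adjusted p = 1.1e-08 from edgeR). Neither gene's groups overlapped.

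**Figure D5:**
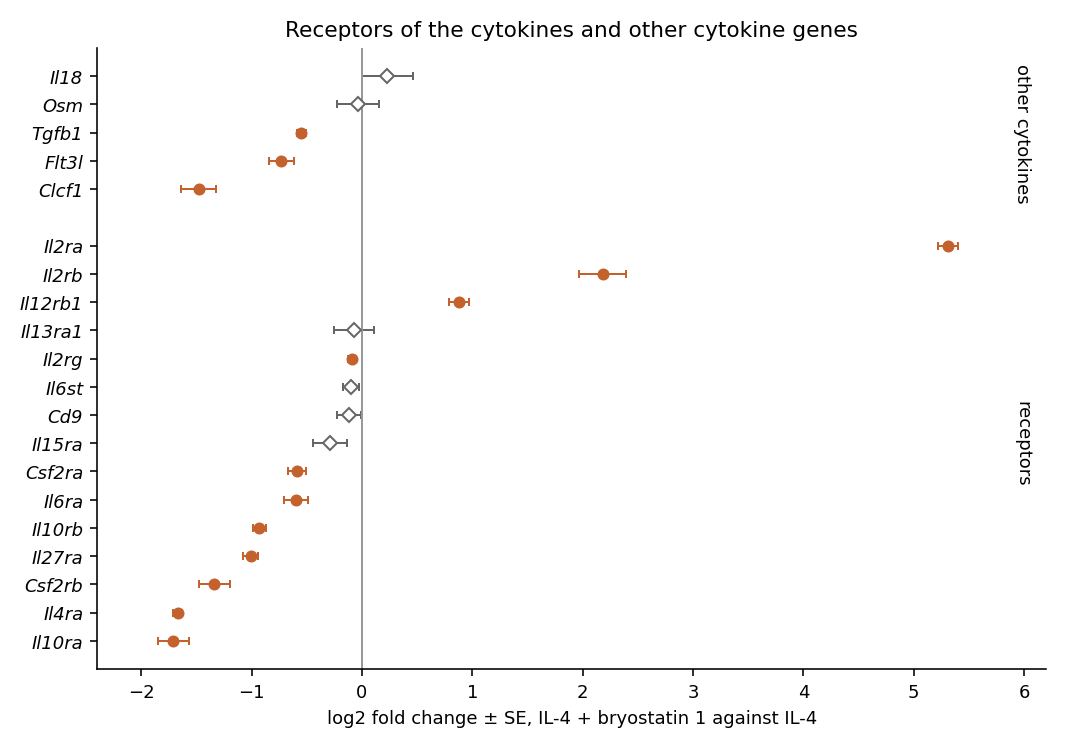
Log2 fold change ± SE (horizontal axis, IL-4 + bryostatin 1 against IL-4, 3 samples in each) of the tested receptor genes and other cytokine genes. Filled circles were called by edgeR and open diamonds were not. Il2ra lay at 5.31 and Il10ra at -1.71. Of the 5 other cytokines tested, 3 were called, all lower, where 58.2% of all genes tested were called.

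Of 35 other cytokine genes, 32 were in the table and 5 were tested, of which 3 were lower, 0 were higher and 2 were not called. Of all genes tested, 58.2% were called, 30.0% as higher and 28.1% as lower, so 3 calls among 5 genes is close to that share. The 3 lower cytokines were Clcf1, Flt3l and Tgfb1. Clcf1 is a B cell stimulating cytokine of the IL-6 family. Flt3l is the growth factor of dendritic cells, and Tgfb1 is the cytokine of switching to IgA. Clcf1 was at 16.5, 13.3 and 9.96 CPM with IL-4 and at 5.52, 4.15 and 4.43 CPM with bryostatin 1, a log2 fold change of -1.48 (SE 0.16, adjusted p = 2.4e-07 from edgeR). Flt3l fell by 0.73 (SE 0.11) and Tgfb1 by 0.55 (SE 0.04) on the log2 scale. Csf1 and Ebi3 were thus the only cytokine genes of the 10 tested here, over both sets, that were called higher.

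With no filter, edgeR called 4 more of the other cytokines higher, all with few counts and by p-values not on the scale of the main fit. They were named after their values were seen. Ifng had 1, 1 and 0 counts with IL-4 and 8, 5 and 13 with bryostatin 1. Lif had 0, 1 and 0 against 2, 3 and 11, Tgfb2 had 3, 1 and 2 against 10, 9 and 14, and Il33 had 1, 6 and 1 against 12, 9 and 9. Ifng is made by T and NK cells too. The 7 T cell markers summed to 1.66 to 1.9 CPM with IL-4 and 2.45 to 3.55 CPM with bryostatin 1. Without Trac, the other 6 T cell markers summed to 0.71 to 1.37 CPM and 0.951 to 1.65 CPM, ranges that overlapped. Leaving out Trac was decided after its values were seen. The 6 NK and innate lymphoid markers summed to 0.284 to 0.503 CPM and 0.646 to 1.58 CPM. The part of T and NK cells in the Ifng counts was not tested.

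Of 28 genes that regulate cytokine RNA, all were tested, 14 were higher, 10 were lower and 4 were not called, with a median log2 fold change of 0.07. Of all genes tested, 30.0% were higher and 28.1% lower. When at least 10 counts were required in each sample, 11 of the list were higher and 10 lower. Fosl2, an AP-1 subunit, had 10, 12 and 9 counts with IL-4 and 52, 35 and 46 with bryostatin 1. It passed the filter through its bryostatin 1 samples and was not kept under the stricter rule. Its rise was 2.01 (SE 0.25, adjusted p = 1.8e-06 from edgeR) on the log2 scale. Prdm1, the gene of Blimp-1, a repressor that drives plasma cell differentiation, rose by 1.68 (SE 0.13). Stat5a, a factor activated by IL-2 family cytokines, was at 109.0, 107.0 and 106.0 CPM with IL-4 and at 238.0, 253.0 and 247.0 CPM with bryostatin 1, a log2 fold change of 1.2 (SE 0.04, adjusted p = 1.2e-14 from edgeR). Zc3h12a (Regnase-1), which degrades cytokine RNAs such as that of Il6, was at 26.1, 21.9 and 16.7 CPM against 8.9, 9.66 and 10.7 CPM, a log2 fold change of -1.15 (SE 0.12, adjusted p = 3.4e-07 from edgeR). Il6 stayed near 0 counts in both groups.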

How the data were processed

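RNA from 6 samples of cultured mouse B cells was sequenced. The authors used cutadapt and sickle for trimming, Hisat2 for alignment, Samtools for sorting and featureCounts for counting. For versions, build, annotation and strand setting, the sources used here give nothing, so reads of overlapping antisense genes cannot be told apart. The deposited values are whole-number counts, not normalized, for each of 139023 RefSeq transcript rows. The deposited table also holds the authors' comparison per row from TCC and edgeR (mean level, log2 ratio, p-value, q-value, rank and call), which was not used. Samples with TGF-β were not analysed here.

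Each of 46316 symbols was represented by its row of highest mean count. The design had assumed counts per gene. edgeR's filterByExpr (minimum count 10, minimum total 15) left 13863 genes. Scaling followed DEGES, rewritten in 3 rounds (TMM factors, genes at a false discovery rate of 0.1 removed with a floor of 5%, TMM factors again). CPM were taken on the scaled library sizes. Groups were compared in edgeR 4.0.16 (R 4.3.3) by its quasi-likelihood test without covariates, on 4 residual degrees of freedom. P-values were adjusted over all genes (Benjamini-Hochberg) and called under 0.05. The SE of a log2 fold change was obtained as |log2 fold change| over √F. The biological coefficient of variation was 3.89%. Alternatives covered scaling, DESeq2 1.42.0, the filter, the threshold, the transcript row used, the replicate block and each sample left out. Exact permutation tests used scipy 1.17.1 in Python 3.11.15.

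Genes below the filter were described by counts with exact 95% Poisson intervals for a group's sum, exact binomial intervals for a ratio of sums and a floor of 3 counts per group. These cover counting error only, since reads without molecular identifiers are not independent molecules. Transcript lengths and exons came from GENCODE vM21 by RefSeq match, promoters from RefSeq on GRCm38.p6. The build of the files is not stated, so coordinates are those of the annotations.

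The genes named are the 10 cytokine genes, Csf1r, Il12b, Il23a and Il27, up to 4 called genes of each other list with the largest change and a mean of at least 1 CPM, and the 3 genes most like Csf1 with a mean of at least 5 CPM. Other receptor genes, single markers and Ifng, Lif, Tgfb2 and Il33 were named after their values were seen. An item of the marker lists is not reported here and is in no sum. The members and lists were chosen with earlier results of these data known. Samples of a group differed by more than sampling noise, so none was taken as the same library deposited again. Separate libraries of a single RNA would pass this check too. Counts were also simulated for 13863 genes of this comparison, with 13663 of them left unchanged. Calls were made for 57 of 67 genes with a 1.5-fold change and 64 of 67 with a 2-fold change. They were also made for 65 of 66 genes with a 4-fold change and 10 of 13663 with none. In the data themselves 58.2% of the genes tested were called, a far larger share than was changed in the simulation. How often a call is wrong in these data was not tested.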

Additional observations from a re-analysis of the deposited data

How the results depend on the processing

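Of 239 alternative values for 16 named genes over 15 settings, 236 kept their direction and their side of the threshold, 0 reversed, and 3 lost the call, all for Il16. Those of the 16 outside the 10 cytokine genes were picked as called genes with large changes in the main fit. Their calls were therefore likely to be kept. The Il16 log2 fold change was -0.09 on library totals, and from -0.15 to -0.09 with each sample left out. The number of the 10 cytokine genes called lower was then 1 in place of 2 on library totals, 1 at an adjusted p under 0.01, and from 1 to 2 with each sample left out. Csf1 stayed between 3.34 and 3.52, Ebi3 between 0.9 and 0.99 and Il12a between -1.07 and -0.84. Among the partner chains 1 gene, Il23a, was called higher with no filter, and 0 to 1 with each sample left out, because the filter then kept it. Of the other cytokines, 4 were called higher with no filter and 2 with the rows of a gene summed, in place of 0.

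The replicate block changed no call of the tested cytokine genes: Csf1 was at 3.38, Ebi3 at 0.95, Il12a at -0.93, Il16 at -0.12 and Il15 at -0.38. Over all genes tested, the calls did change, with 4255 higher and 4052 lower in place of 4161 and 3901. Deviations of samples with the same number correlated at 0.152, 0.0576 and 0.0364, and those of samples with different numbers at -0.1 to 0.0515. These values do not settle whether the numbers pair the samples, and the main fit left them unpaired. When a sample was left out, its group had 2 samples.

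With 3 samples a group, the smallest exact p on 1 gene is 0.1. At this depth, the 5 genes below the filter carry at most 9 counts in a sample, and no statement on their change can be made. The counts are of RNA and give no level of secreted protein. Reads shared between rows limit what can be said of single Csf1 forms.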
